A study of Rattus norvegicus with 13 samples.

Results

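The 4 genes described here encode the peptides by which neurons of the arcuate nucleus drive or restrain feeding: Npy (neuropeptide Y), Agrp (agouti-related peptide), Pomc (pro-opiomelanocortin) and Cartpt (cocaine- and amphetamine-regulated transcript prepropeptide). They were chosen by name, as the transcript clusters (groups of probes for 1 gene) annotated with exactly 1 of these symbols. Earlier results of these data were known when the genes were chosen. They are 4 of 22093 genes with a single symbol on the array, carried by 5 of 70580 transcript clusters. Npy alone had a second cluster, which followed the brighter one used here at r = 0.995 over the 13 arrays and lay between 0.193 below it and 0.0107 above it on the log2 scale. All 4 genes were bright enough to be among the 16033 tested, where a gene needed a mean log2 signal of at least 6.58.

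The signals come from hypothalami of male Sprague-Dawley rats, received at 6 to 7 weeks of age, fed freely for 2 months and 14 to 15 weeks old at collection. Rats fed the high-fat safflower oil diet (HF-SD, 35% of energy as safflower oil, whose main fatty acid is linoleic acid, an omega-6 fat) gave 5 arrays, and rats fed the high-fat flaxseed oil diet (HF-FD, 35% of energy as flaxseed oil, whose main fatty acid is alpha-linolenic acid, an omega-3 fat) gave 4. Rats fed the low-fat control diet (LF-CD, 16% of energy as soybean oil) gave the other 4. The tissue was the whole hypothalamus, dissected from the anterior commissure to the mammillary bodies, so the arcuate nucleus is only a part of each sample, and fewer peptide neurons cannot be told apart from less RNA in each of them. Whether 1 array stands for 1 animal is not stated in the labels, and the p-values then measure only the spread between these samples, which may be technical.

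Neurons that make neuropeptide Y and agouti-related peptide stimulate feeding, and they are active when energy stores are low. Neighbouring neurons process pro-opiomelanocortin to alpha-MSH, which reduces food intake through the melanocortin receptors MC3R and MC4R, where agouti-related peptide acts as the antagonist. In rodents, CART peptide is made in many of the POMC neurons of the arcuate nucleus and also in other hypothalamic nuclei, and neuropeptide Y is made by neurons outside the arcuate nucleus too. Leptin and insulin restrain the first kind of neuron and stimulate the second.

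The promoters of the 4 genes are shown so that genes with similar diet differences can be read side by side, and each is the sequence from 250 bases before to 50 bases after the start of transcription in the RefSeq annotation of GRCr8. The Npy promoter lies at chr4:80211861-80212160 on the plus strand, the Agrp promoter at chr19:50359448-50359747 on the minus strand, the Pomc promoter at chr6:32659103-32659402 on the plus strand and the Cartpt promoter at chr2:32991186-32991485 on the minus strand. Capitals mark exact matches to TGACGTCA, the full cyclic AMP response element, and to TATAAA, known as a TATA box, searched on both strands and not overlapping each other.
Npy: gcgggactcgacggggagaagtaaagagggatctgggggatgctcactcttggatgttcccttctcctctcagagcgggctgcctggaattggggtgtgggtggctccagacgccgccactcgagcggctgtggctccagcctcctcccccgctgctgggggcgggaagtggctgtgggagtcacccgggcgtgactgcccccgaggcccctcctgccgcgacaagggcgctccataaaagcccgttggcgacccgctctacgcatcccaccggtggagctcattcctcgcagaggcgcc
Agrp: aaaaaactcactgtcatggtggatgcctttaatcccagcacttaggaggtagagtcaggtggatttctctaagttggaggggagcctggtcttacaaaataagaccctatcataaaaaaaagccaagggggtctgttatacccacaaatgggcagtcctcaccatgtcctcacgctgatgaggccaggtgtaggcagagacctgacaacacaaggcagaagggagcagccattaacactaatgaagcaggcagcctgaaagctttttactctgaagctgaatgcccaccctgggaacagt
Pomc: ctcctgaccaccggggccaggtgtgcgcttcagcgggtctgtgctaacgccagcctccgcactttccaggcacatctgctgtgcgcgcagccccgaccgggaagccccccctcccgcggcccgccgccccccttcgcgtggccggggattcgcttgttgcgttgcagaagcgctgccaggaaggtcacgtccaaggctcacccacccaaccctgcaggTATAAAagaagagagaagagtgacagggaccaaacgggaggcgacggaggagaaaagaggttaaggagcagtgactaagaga
Cartpt: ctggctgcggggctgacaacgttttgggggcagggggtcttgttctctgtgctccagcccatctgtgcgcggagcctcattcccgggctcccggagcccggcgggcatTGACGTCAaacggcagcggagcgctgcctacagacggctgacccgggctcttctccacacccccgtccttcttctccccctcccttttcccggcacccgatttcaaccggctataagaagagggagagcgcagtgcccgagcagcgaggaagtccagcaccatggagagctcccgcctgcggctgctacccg
The Pomc window holds TATAAA from position -32 relative to the start, as do 14.2% of 33469 rat promoters of this length at any position. The Cartpt window holds TGACGTCA from position -142, which 1.83% of the promoters hold. TTCNNNGAA, the STAT motif (8.87% of promoters), and TGTTTAC, the FoxO core (3.78%), were found in none of the 4 windows. CANNTG, the E-box (72.1% of promoters), was found 3 times in Agrp, 2 times in Pomc, 1 time in Cartpt and not in Npy, and is not capitalised. The Npy, Pomc and Cartpt windows were rich in G and C (67.7%, 64% and 66%), whereas Agrp had 48.3% and the median promoter 51.7%. These are letter matches, and nothing about the binding of a factor was measured.

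All values below are the deposited RMA signals on the log2 scale, where a difference of 1 is a doubling, and a signal of 1 gene cannot be set against that of another because probes differ. Differences between diets come from limma, a linear model fitted to all tested genes, with p-values adjusted by Benjamini-Hochberg over those genes and a threshold of 0.05, and all tests are two-sided. For single genes an exact permutation of the array labels is given too, for which the smallest possible p is 0.00794 with 5 against 4 arrays and 0.0286 with 4 against 4. Comparisons that share a diet share its arrays and are not independent of each other.

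By mean signal the 4 genes stood lowest under the safflower diet and highest under the flaxseed diet, with the low-fat diet between them. For Agrp this order rested on flaxseed replicate 1, without which its change for flaxseed minus low-fat was -0.04. Agrp passed the threshold with safflower against low-fat, 1.30-fold lower, where 16.9% of all tested genes passed as lower. This call was lost under cyclic loess and under quantile normalization of all clusters, and held under quantile normalization over the genes alone (limma adjusted p = 0.0398). With a background covariate, which cannot be told apart from diet, 0 of all tested genes passed, so its loss there says nothing about Agrp alone. No other difference of the 4 genes passed as deposited. Array weights brought Npy past the threshold for safflower minus low-fat, where 8988 of 16033 genes passed with them. They brought all 4 genes past it for safflower minus flaxseed, where 4667 of 16033 genes passed. Between the high-fat diets the means of Npy, Agrp, Pomc and Cartpt were 1.31- to 1.62-fold lower with safflower, changes in the lower tail of all tested genes, but none of the tested genes passed limma's adjusted threshold there. Without flaxseed replicate 1 the log2 change was -0.42 in place of -0.69 for Pomc and -0.25 in place of -0.39 for Cartpt.

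Npy, which stimulates feeding, had signals of 9.31, 9.74, 9.14, 9.95 and 9.69 on the 5 HF-SD arrays, 10.22, 10.19, 9.98 and 10.25 on the 4 HF-FD arrays, and 9.50, 9.96, 9.85 and 9.67 on the 4 LF-CD arrays. All flaxseed arrays lay above all others, narrowly so against low-fat replicate 2, while safflower and low-fat arrays overlapped. After quantile normalization of all clusters the flaxseed arrays (9.98 to 10.24) overlapped the low-fat arrays (9.67 to 10.11). The means were 9.56 ± 0.33 (SD, n = 5) with HF-SD, 10.16 ± 0.12 (SD, n = 4) with HF-FD and 9.75 ± 0.20 (SD, n = 4) with LF-CD. Npy had a log2 change of -0.60 for HF-SD minus HF-FD (SE 0.14, limma adjusted p = 0.246, exact permutation p = 0.0159), that is 1.51-fold lower with safflower, and ranked 44 of 16033 by p. For HF-FD minus LF-CD it had 0.42 (SE 0.15, limma adjusted p = 0.205, exact permutation p = 0.0286, the smallest possible), or 1.34-fold higher with flaxseed. For HF-SD minus LF-CD it had -0.18 (SE 0.14, 95% confidence interval -0.48 to 0.12, limma adjusted p = 0.317), a difference that did not exceed the spread. Without safflower replicate 4, the highest of its diet, the safflower minus flaxseed change was -0.69 and passed the threshold (limma adjusted p = 0.0466).

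Agrp, made by the same arcuate neurons as neuropeptide Y, had 6.88, 6.99, 6.84, 6.87 and 6.59 on the HF-SD arrays, 7.56, 7.17, 7.28 and 7.07 on the HF-FD arrays, and 7.24, 7.26, 7.09 and 7.23 on the LF-CD arrays. All safflower arrays lay below all others, and the flaxseed and low-fat arrays overlapped. After quantile normalization of all clusters the safflower arrays (6.75 to 7.07) overlapped the low-fat arrays (7.02 to 7.20) but not the flaxseed arrays (7.08 to 7.56). The means were 6.83 ± 0.15 (SD, n = 5) with HF-SD, 7.27 ± 0.21 (SD, n = 4) with HF-FD and 7.21 ± 0.08 (SD, n = 4) with LF-CD. Agrp fell with safflower against low-fat by a log2 change of -0.37 (SE 0.10, limma adjusted p = 0.00917, exact permutation p = 0.00794, the smallest possible). Its rank by p there was 2351 of 16033, where 6377 genes passed in either direction. For HF-SD minus HF-FD the change was -0.44 (SE 0.10, 1.35-fold lower with safflower, limma adjusted p = 0.246, exact permutation p = 0.00794), rank 20 of 16033 by p. For HF-FD minus LF-CD it was 0.06 (SE 0.10, 95% confidence interval -0.15 to 0.27, limma adjusted p = 0.738) and turned to -0.04 without flaxseed replicate 1.

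The call on Agrp depended on how the arrays were scaled. With the tested genes split into 10 classes by signal, the median change in the class that holds Agrp was -0.15 for HF-SD minus LF-CD, and the Agrp change less that median was -0.23. Quantile normalization over the genes alone gave -0.25 (limma adjusted p = 0.0398), cyclic loess gave -0.23 (limma adjusted p = 0.0682) and quantile normalization of all transcript clusters gave -0.20 (limma adjusted p = 0.151). With the median of the olfactory receptor genes, a measure of background, as a covariate it was -0.01 (limma adjusted p = 0.985). That median was 4.69 to 4.79 on the HF-SD, 4.84 to 4.95 on the HF-FD and 4.95 to 5.11 on the LF-CD arrays, and it cannot be told apart from diet there.

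Pomc, the precursor of alpha-MSH, had 7.81, 7.95, 7.93, 8.23 and 7.49 on the HF-SD arrays, 9.40, 8.45, 8.22 and 8.23 on the HF-FD arrays, and 8.13, 8.07, 8.13 and 8.29 on the LF-CD arrays. One flaxseed array, replicate 1, stood far above the rest, and 4 of 5 safflower arrays lay below all flaxseed and all low-fat arrays. The means were 7.88 ± 0.27 (SD, n = 5) with HF-SD, 8.58 ± 0.56 (SD, n = 4) with HF-FD and 8.15 ± 0.10 (SD, n = 4) with LF-CD. For HF-SD minus HF-FD the log2 change was -0.69 (SE 0.20, 1.62-fold lower with safflower, limma adjusted p = 0.246, exact permutation p = 0.0238), rank 206 of 16033 by p. Without flaxseed replicate 1 the change was -0.42. For HF-FD minus LF-CD it was 0.42 (SE 0.21, limma adjusted p = 0.269, exact permutation p = 0.0857), and without that array 0.15. For HF-SD minus LF-CD it was -0.27 (SE 0.20, 95% confidence interval -0.70 to 0.16, limma adjusted p = 0.283, exact permutation p = 0.0873).

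Cartpt, the precursor of the CART peptides, had 10.15, 10.77, 10.71, 10.65 and 10.24 on the HF-SD arrays, 11.32, 10.82, 10.72 and 10.74 on the HF-FD arrays, and 10.49, 10.64, 10.55 and 10.66 on the LF-CD arrays. All flaxseed arrays lay above all low-fat arrays, narrowly except for replicate 1, and safflower replicates 1 and 5 were the lowest of the 13. After quantile normalization of all clusters the flaxseed arrays (10.60 to 11.83) overlapped the low-fat arrays (10.54 to 11.22). The means were 10.51 ± 0.29 (SD, n = 5) with HF-SD, 10.90 ± 0.28 (SD, n = 4) with HF-FD and 10.58 ± 0.08 (SD, n = 4) with LF-CD. For HF-SD minus HF-FD the log2 change was -0.39 (SE 0.14, 1.31-fold lower with safflower, limma adjusted p = 0.254, exact permutation p = 0.0794), rank 866 of 16033 by p. Without flaxseed replicate 1 the change was -0.25. For HF-FD minus LF-CD it was 0.31 (SE 0.15, limma adjusted p = 0.251, exact permutation p = 0.0286), and 0.17 without that array. For HF-SD minus LF-CD it was -0.08 (SE 0.14, 95% confidence interval -0.38 to 0.22, limma adjusted p = 0.669).

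**Figure D1:**
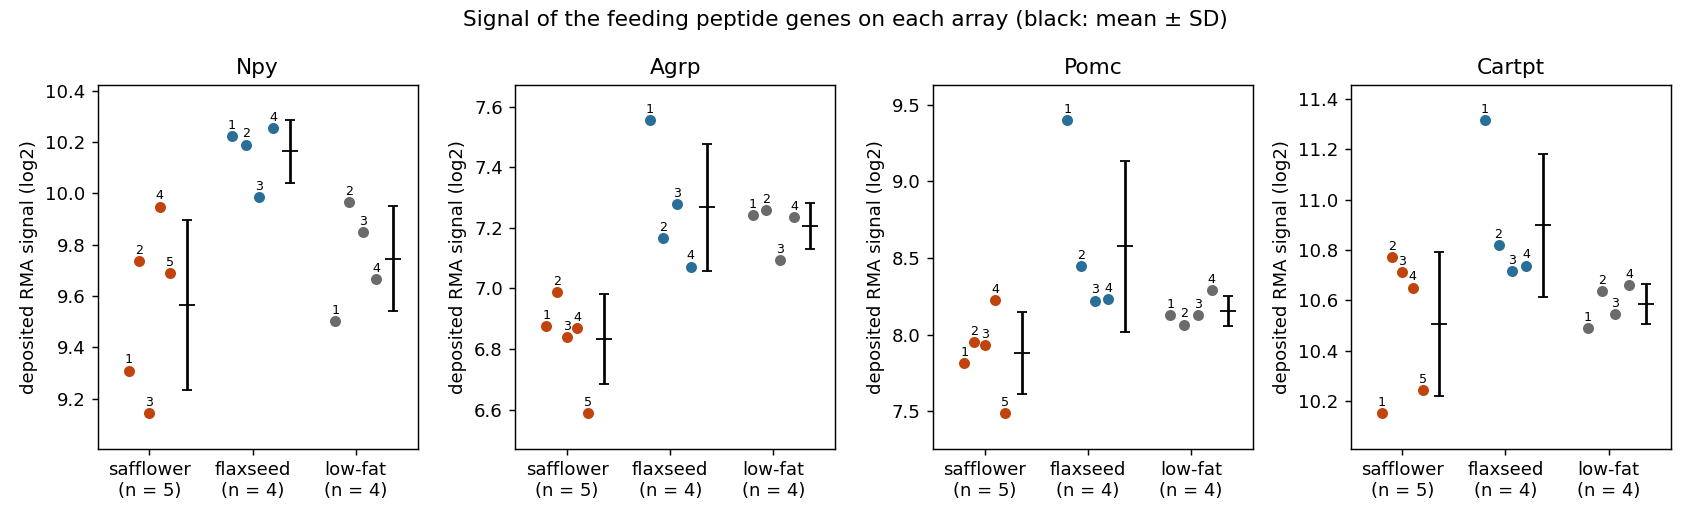
Each panel plots the log2 signal of 1 gene on the vertical axis for every array, by diet, with the mean and SD in black. On this deposited scale Npy on the 4 flaxseed arrays (9.98 to 10.25) and Agrp on the 5 safflower arrays (6.59 to 6.99) are each separate from the other diets. Neither is separate from low-fat after quantile normalization of all clusters. Flaxseed replicate 1 is the highest array for Agrp, Pomc and Cartpt.

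The safflower minus low-fat changes of Npy and Cartpt were lower after quantile and loess normalization and slightly higher after median centring (-0.14 for Npy and -0.03 for Cartpt). Npy for HF-SD minus LF-CD was -0.40 after quantile normalization over the genes alone (limma adjusted p = 0.0850) and -0.40 after loess, and Cartpt was -0.32 (limma adjusted p = 0.141) and -0.35. The median change in the class by signal that holds both genes was 0.26. For HF-SD minus HF-FD the quantile values over the genes alone were -0.69 for Npy, -0.35 for Agrp, -0.67 for Pomc and -0.50 for Cartpt, with limma adjusted p = 0.320 to 0.326. For HF-FD minus LF-CD they were 0.29, 0.10, 0.38 and 0.17 in the same order. Quantile normalization of all transcript clusters gave Cartpt an SE of 0.25. On the deposited scale the 98th percentile of the clusters without a single symbol ran from 10.87 to 12.37 over the arrays and that of the genes from 10.41 to 10.82, and the part of this in the SE was not tested.

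**Figure D2:**
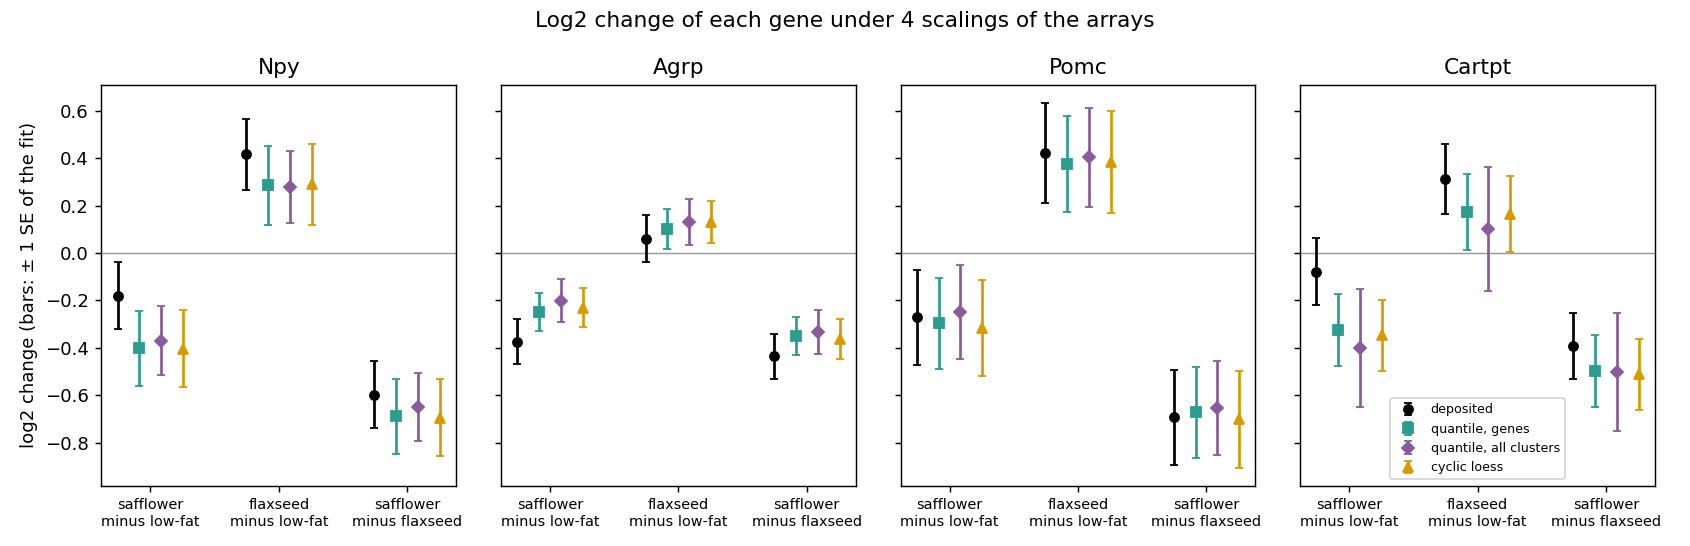
Log2 change (vertical axis, bars ± 1 SE) of each gene in the 3 comparisons under the deposited scaling, quantile normalization over all clusters, quantile normalization over the genes alone and cyclic loess. For safflower minus flaxseed the values of all 4 genes are below 0 under each of the 4 scalings, between -0.70 and -0.33, while Npy and Cartpt for safflower minus low-fat are lower under the 3 other scalings shown.

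Set against all tested genes, the changes of the 4 between the high-fat diets lay in the lower tail. For HF-SD minus HF-FD only 7 of 16033 genes had a lower change than Pomc, 14 than Npy, 43 than Agrp and 62 than Cartpt. Without flaxseed replicate 1 the change was -0.58 for Npy, -0.34 for Agrp, -0.42 for Pomc and -0.25 for Cartpt. With all arrays the median of the 4 was -0.52, against 0.0027 over all genes. All 4 had an unadjusted limma p under 0.05 in that direction (0.000377 for Agrp, 0.000792 for Npy, 0.00349 for Pomc and 0.0137 for Cartpt), as had 6.7% of all genes, but 0% of genes passed the adjusted threshold of limma in either direction (2480 had an unadjusted p under 0.05). With limma's array weights, which count deviating arrays less, 4667 genes passed in this comparison, among them Npy (-0.78), Agrp (-0.34), Pomc (-0.58) and Cartpt (-0.37). Npy and Agrp were the 2 of 4 whose safflower arrays all lay below the flaxseed arrays, which 3.7% of genes did. Markers of neighbouring tissues were lower by median in the same comparison, with 0 past the threshold: -0.22 for 7 choroid plexus and ependymal markers, all 7 negative, -0.18 for 11 tanycyte and median eminence markers, all 11 negative, -0.41 for 5 blood markers and -0.17 for 5 pituitary markers, all 5 negative in each. The medians were -0.09 for muscle, -0.02 for other hypothalamic regions and 0.17 for thalamus, striatum and cortex. Their part in the changes of the 4 genes was not tested.

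For HF-FD minus LF-CD the median of the 4 was 0.37, against 0.05 over all genes. The changes of Npy, Pomc and Cartpt were above those of 99.7%, 99.7% and 98.6% of genes, while Agrp was above 54.0%. Without flaxseed replicate 1 the change was 0.40 for Npy, but 0.15 for Pomc, 0.17 for Cartpt and -0.04 for Agrp. With all arrays, again 0% of genes passed limma's adjusted threshold (3226 had an unadjusted p under 0.05), and with array weights 4713 did. Npy was the 1 of 4 with an unadjusted limma p under 0.05 and a higher signal (0.0140), as had 12.9% of genes. As deposited, Npy and Cartpt were the 2 of 4 whose arrays did not overlap, against 5.88% of genes. Both overlapped after quantile normalization of all clusters.

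For HF-SD minus LF-CD, where much of the array shifted, 1 of 4 genes passed as lower (Agrp), against 16.9% of all genes, and 0 of 4 as higher, against 22.9%. After quantile normalization over the genes alone it was again 1 of 4 (Agrp), against 12.9% of genes. As deposited, the safflower arrays lay below the low-fat arrays without overlap for 1 of 4 (Agrp), against 12.5% of genes, so these shares are near the background. The median of the 4 was -0.23, against 0.07 over all genes.

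**Figure D3:**
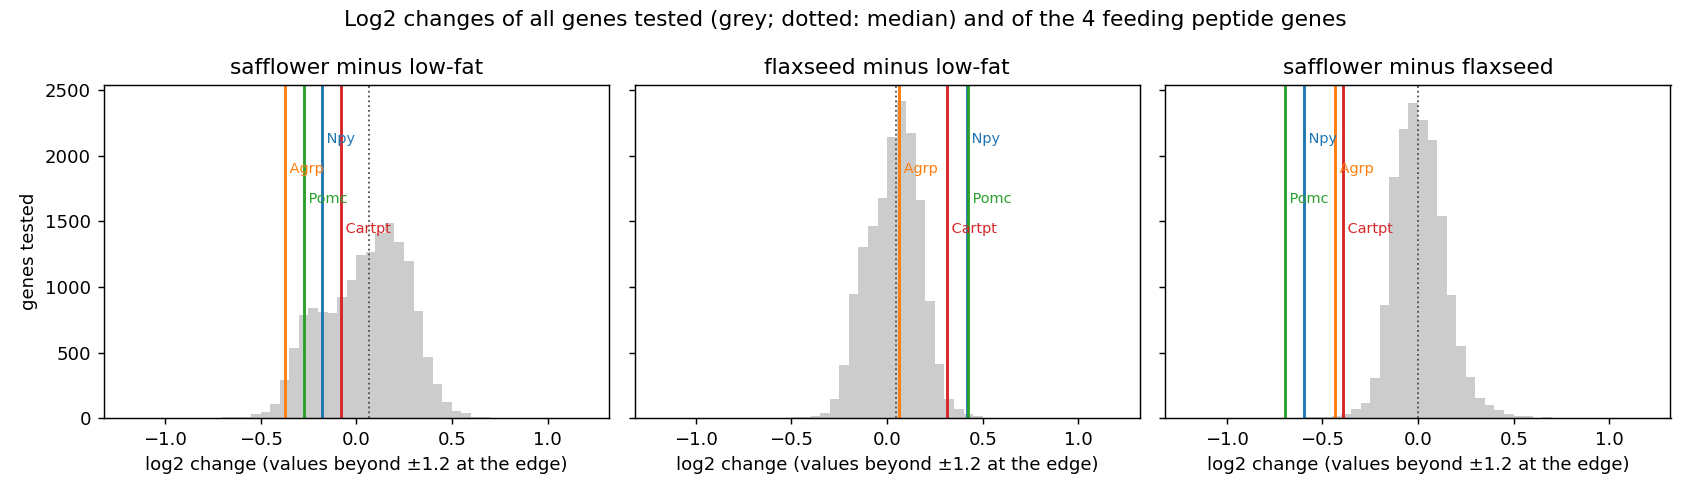
Histograms of the log2 change of the 16033 tested genes (vertical axis, number of genes; dotted line, median) with the changes of the 4 genes marked, in 1 panel per comparison. In safflower minus flaxseed the 4 marks (-0.69 to -0.39) lie in the lower tail around a median near 0, and in flaxseed minus low-fat Npy, Pomc and Cartpt (0.31 to 0.42) lie in the upper tail. Without flaxseed replicate 1, Pomc and Cartpt were -0.42 and -0.25 for the first and 0.15 and 0.17 for the second.

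Within diets, r between Pomc, Cartpt and Agrp was higher than r between Npy and any of them, but this rested on few arrays. Over the 13 arrays, after each diet's mean was subtracted, Pearson's r was 0.80 between Pomc and Cartpt (Spearman's rho 0.83), 0.79 between Agrp and Pomc (0.62) and 0.70 between Agrp and Cartpt (0.52). These relations leaned on flaxseed replicate 1 and safflower replicate 5: without both, r was 0.49 for Pomc and Cartpt, -0.05 for Agrp and Pomc and 0.17 for Agrp and Cartpt. Npy, although made with agouti-related peptide in arcuate neurons, had r of -0.05 with Agrp (rho 0.11), 0.16 with Pomc (rho 0.08) and 0.23 with Cartpt (rho 0.26). Without safflower replicates 3 and 4, the farthest for Npy, r was -0.12 with Agrp, 0.07 with Pomc and 0.47 with Cartpt, close to the 0.49 of Pomc and Cartpt. The values share their arrays and their scaling, so they are given as a description.

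The genes most like each member over the same 13 values, with no function read into the likeness, were Grm7, Per2 and Unc5c for Npy (r = 0.95, 0.94 and 0.93), Kif27, Fam216b and Armc3 for Agrp (0.96, 0.95 and 0.95), Psme1, Capn6 and Stk26 for Pomc (0.95, 0.94 and 0.94), and Ston1, Pkp2 and Ctf1 for Cartpt (0.92, 0.90 and 0.90; 0.70, 0.69 and 0.70 after quantile normalization of all clusters). Without flaxseed replicate 1, r was 0.86, 0.76 and 0.77 for the Pomc genes, 0.86, 0.84 and 0.92 for the Cartpt genes and at least 0.91 for the others. Over all 13 arrays and among 16032 genes, Pomc ranked 42 in likeness to Cartpt, Cartpt 85 and Agrp 93 in likeness to Pomc, and Agrp 5564 in likeness to Npy. Without flaxseed replicate 1 the ranks were 153, 247, 531 and 6456, and after quantile normalization of all clusters 361, 114, 113 and 5103, in the same order.

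**Figure D4:**
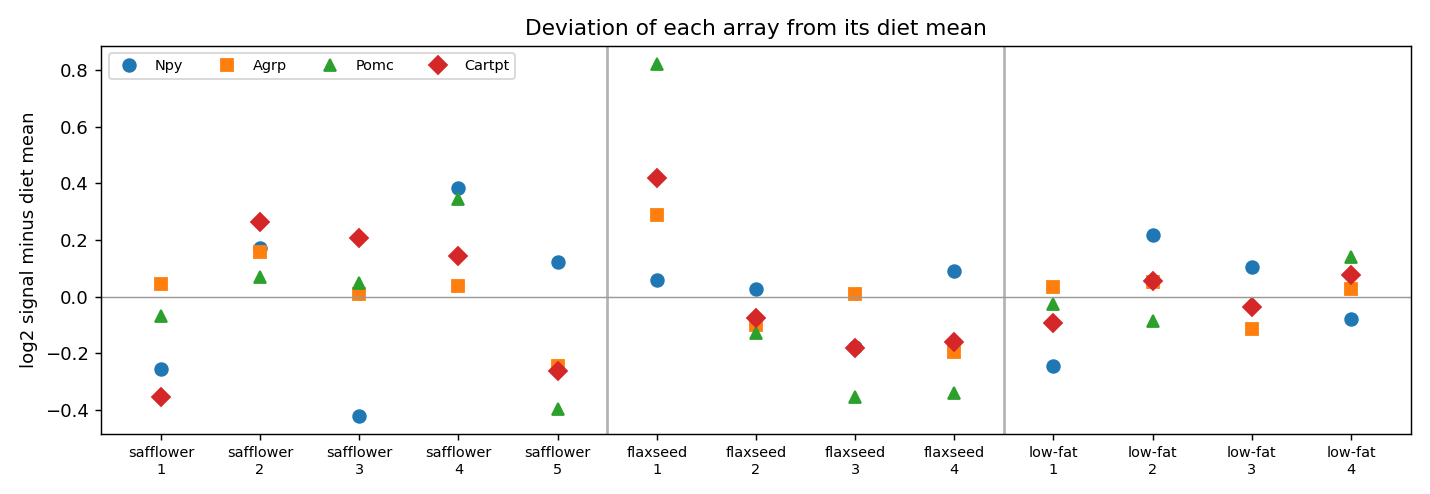
Each array's log2 signal minus its diet mean (vertical axis) for the 4 genes, with arrays along the horizontal axis by diet and replicate. Flaxseed replicate 1 is above its diet mean for Pomc, Cartpt and Agrp and safflower replicate 5 is below it for the same 3 genes, whereas Npy in these arrays lies near or above its mean.

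The markers of the arcuate nucleus and of the pituitary, which lies next to it and also transcribes Pomc, were read on the same arrays. Ghrh, the growth hormone-releasing hormone of arcuate neurons, had 7.81 ± 0.20 (SD, n = 5) with HF-SD, 8.21 ± 0.05 (SD, n = 4) with HF-FD and 8.32 ± 0.09 (SD, n = 4) with LF-CD. Ghrh fell with safflower against low-fat by a log2 change of -0.51 (SE 0.09, limma adjusted p = 0.00379). Of 10 tested arcuate markers (11 on the array), 1 was lower (Ghrh) and 0 higher for HF-SD minus LF-CD, with a median of -0.13 and all 10 changes negative. After quantile normalization of all clusters 2 were lower and 0 higher, with a median of -0.24. For HF-FD minus LF-CD the median was 0.07, with 6 changes positive and 4 negative, and for HF-SD minus HF-FD it was -0.22, with 2 positive and 8 negative. The part of this in the changes of the 4 genes was not tested. The summed linear signal of the 11, most of it from the dopamine neuron genes Th and Slc6a3, was 4503 to 12804 with HF-SD, 5264 to 7318 with HF-FD and 6312 to 9928 with LF-CD. Flaxseed replicate 1 also stood apart for Tbx3, a transcription factor of arcuate neurons (8.80, against 7.91 to 8.11 on the other flaxseed arrays), Bsx (8.34, against 7.37 to 7.70), Isl1 (8.84, against 8.01 to 8.16) and the ventromedial nucleus gene Fezf1 (10.25, against 8.54 to 8.87). The first 3 are transcription factors with known roles in the peptide neurons. These genes were named after their values were seen, and their lists did not all follow. Ghrh was 8.24 on that array, against 8.15 to 8.24 on the other flaxseed arrays. The summed arcuate list, at 6500, lay within the range of its diet, and the list of other hypothalamic regions had its lowest flaxseed sum there (12122). The tanycyte and median eminence list had its highest sum of all arrays there (6401). So had the lists, described below, of transcription factors and signalling genes (13976), NPY and melanocortin receptors (4726), hormone receptors (6904) and choroid plexus and ependymal markers (1405). The blood list had its lowest sum of all arrays there (8784), and the thalamus, striatum and cortex list its lowest flaxseed sum (6261).

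Cga, the alpha subunit shared by pituitary glycoprotein hormones, differed strongly between arrays: 7.56, 8.26, 10.52, 10.25 and 7.47 with HF-SD, 10.64, 10.72, 10.43 and 11.05 with HF-FD, and 9.53, 9.52, 10.86 and 9.99 with LF-CD. Its log2 change for HF-SD minus HF-FD was -1.90 (SE 0.55, limma adjusted p = 0.246). The 3 safflower arrays with low Cga, replicates 1, 2 and 5, include the 2 arrays lowest for Pomc and for Cartpt, replicates 1 and 5. Replicate 2, however, was the highest safflower array for Cartpt (10.77), and for Pomc (7.95) only replicate 4 was higher. Agrp was lowest on replicates 5 and 3 and Npy on replicates 3 and 1. The summed signal of the 11 pituitary markers was 972 to 2346 with HF-SD, 2367 to 3089 with HF-FD and 1764 to 2987 with LF-CD. Prl was at 3.54, 3.54 and 3.72 in the mean of the same diets, below the medians of the negative control features (5.17 to 5.86), and Gh1 at 6.82, 6.99 and 7.20. Of 5 tested pituitary markers, 3 were lower (Gh1, Ghrhr and Pitx1) and 0 higher for HF-SD minus LF-CD, with a median of -0.31, where 16.9% of all genes were lower. After quantile normalization of all clusters 0 of the 5 were lower. The part of dissection borders or of pituitary tissue in the differences of the 4 genes was not tested.

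**Figure D5:**
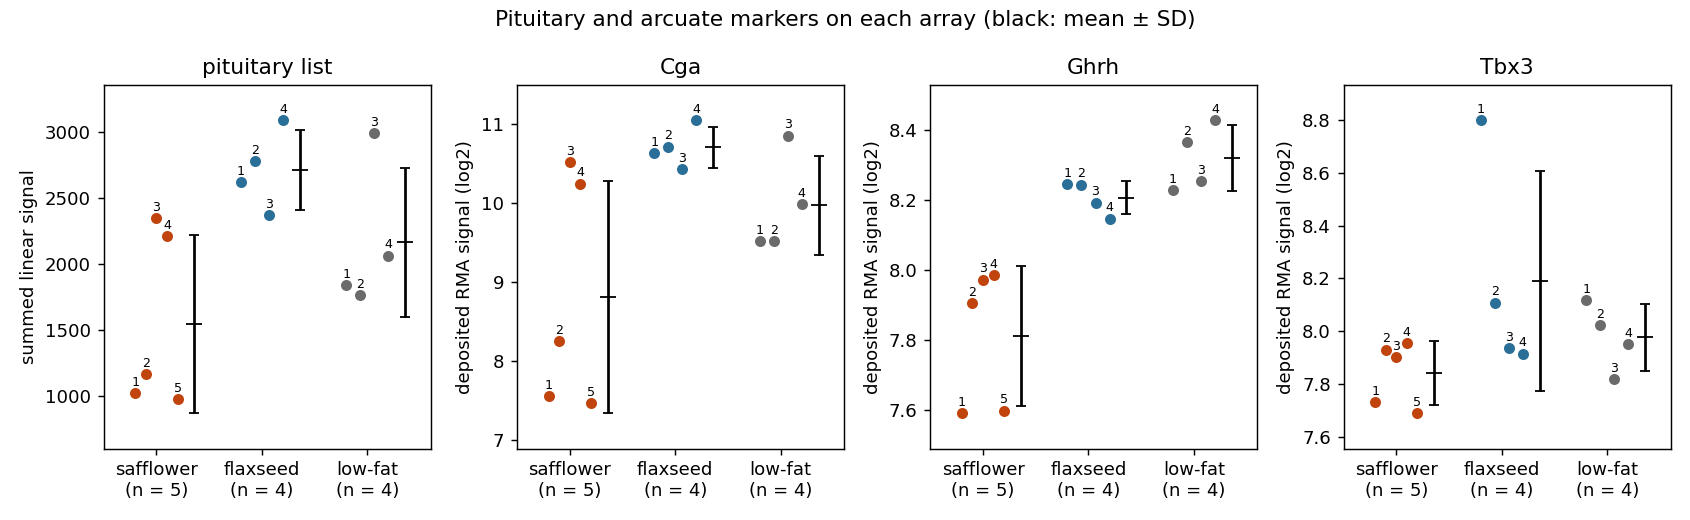
The first panel shows the summed linear signal of the pituitary list (vertical axis) on each array by diet. The others show the log2 signal of Cga, Ghrh and Tbx3, and black marks give mean and SD. Cga ranges from 7.47 to 10.52 on the safflower arrays against 10.43 to 11.05 on the flaxseed arrays, and Ghrh is lower on every safflower array (7.59 to 7.99) than on the low-fat arrays (8.23 to 8.43).

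The calls in the gene lists below are read against the 22.9% of all tested genes called higher and the 16.9% called lower for HF-SD minus LF-CD, and nothing particular to a list is drawn from them. Of 8 tested NPY and melanocortin receptor genes and partners, 3 were lower (against 16.9% of all genes) and 0 higher (against 22.9%) for HF-SD minus LF-CD, with a median change of 0.0027: Mc1r (-0.28, limma adjusted p = 0.0113), Mc5r (-0.32, limma adjusted p = 0.0205) and Npy5r (-0.20, limma adjusted p = 0.0466), which is a receptor through which neuropeptide Y promotes feeding. Mc3r, a receptor of alpha-MSH, had -0.06 (limma adjusted p = 0.779), and Mc4r, the melanocortin receptor best known for restraining feeding, was below the signal limit and not tested. After quantile normalization of all clusters 0 of the 8 passed.

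Of 14 tested receptors for hormones and transmitters that act on these neurons, 5 were higher (against 22.9% of all genes) and 1 lower (against 16.9%) for HF-SD minus LF-CD, with a median of 0.11. Htr2c, the serotonin receptor through which serotonin excites POMC neurons, rose by 0.48 (SE 0.12, limma adjusted p = 0.00767) and Nr3c1, the glucocorticoid receptor, by 0.29 (SE 0.07, limma adjusted p = 0.00620), and Insr, the insulin receptor, by 0.22 (limma adjusted p = 0.0471). After quantile normalization of all clusters 0 of the 14 passed.

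Of 16 tested genes of peptide processing and secretory granules, 11 were higher (against 22.9% of all genes) and 0 lower (against 16.9%) for HF-SD minus LF-CD, with a median of 0.25. Cpe, the carboxypeptidase that trims peptide precursors, rose by 0.32 (SE 0.07, limma adjusted p = 0.00589) and Cadps, which primes dense-core vesicles for release, by 0.43 (SE 0.08, limma adjusted p = 0.00379). Pcsk2, the convertase that acts on the POMC product on the way to alpha-MSH, rose by 0.26 (limma adjusted p = 0.0251). After quantile normalization of all clusters 1 of 16 was higher and the median was 0.08.

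Of 29 tested transcription factors and signalling genes of the peptide neurons, 7 were higher and 1 lower for HF-SD minus LF-CD, with a median of 0.11, against 22.9% of all genes higher and 16.9% lower. Pik3ca, a catalytic subunit of the insulin-activated kinase PI3K, rose by 0.35 (SE 0.07, limma adjusted p = 0.00455) and Neurog3, a factor of arcuate neuron development in mice, fell by 0.36 (SE 0.07, limma adjusted p = 0.00414). After quantile normalization of all clusters 3 were higher and 1 lower. Of 30 other hypothalamic neuropeptides tested, 1 was higher (against 22.9% of all genes) and 7 lower (against 16.9%), with a median of -0.11, among them Ghrh and Npff, the neuropeptide FF precursor (-0.37, SE 0.06, limma adjusted p = 0.00379), and after that normalization 0 were higher and 4 lower. In none of these lists did a gene pass for HF-FD minus LF-CD or for HF-SD minus HF-FD, where 0% of all genes passed.

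Markers of neighbouring tissues were counted on the same arrays for HF-SD minus LF-CD, where 16.9% of all genes were lower: 2 of 7 choroid plexus and ependymal markers (median -0.22), 1 of 11 tanycyte and median eminence markers (median -0.13), 6 of 9 skeletal muscle markers (median -0.76), 1 of 5 blood markers (median -0.37) and 1 of 13 thalamus, striatum and cortex markers (median 0.21) were lower and 0 higher. After quantile normalization of all clusters 1 choroid plexus and ependymal, 0 tanycyte, 2 muscle, 0 blood and 1 thalamus, striatum and cortex markers were lower. Of 18 markers of other hypothalamic regions 1 was higher and 1 lower, with a median of -0.0024. Summed signals were 973 to 1145 with HF-SD, 1114 to 1405 with HF-FD and 1189 to 1341 with LF-CD for the choroid plexus and ependymal list. For tanycytes they were 3831 to 4594, 3882 to 6401 and 4060 to 4721 in the same order of diets, for muscle 1701 to 2207, 1763 to 1994 and 2039 to 8704, for blood 10910 to 15222, 8784 to 21894 and 8791 to 18460, for thalamus, striatum and cortex 7101 to 8756, 6261 to 7510 and 5787 to 7657, and for other hypothalamic regions 11434 to 18863, 12122 to 15608 and 11289 to 15329. The muscle sum of 8704 was that of low-fat replicate 3, and the other low-fat arrays had 2039 to 2485. How far the muscle changes rest on that array was not tested. The defining markers of these 6 lists were above the signal limit of the test. For HF-SD minus LF-CD the tanycyte gene Rax fell by 0.35 (limma adjusted p = 0.0181) and the muscle gene Ckm by 0.81 (limma adjusted p = 0.0310). The change was -0.18 for Ttr of the choroid plexus, 0.21 for Tcf7l2 of the thalamus, -0.09 for the haemoglobin gene Hba-a1 and 0.0024 for Sim1 of the paraventricular nucleus, none of which passed. Their part in the changes of the 4 peptide genes was not tested.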

How the data were processed

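RNA of 13 rat hypothalamus samples was measured on Affymetrix arrays, with cRNA made by the WT PLUS method from 100 ng of RNA, per the labels' protocols. The deposited values are log2 signals of 70580 transcript clusters, made by the authors with RMA. Per the submitters' processing notes the tools were RMA, Transcriptome Analysis Console and Affymetrix Expression Console. The genome build (not given in the sources used here) was not needed. Of the clusters, 1738 were controls, 23446 had 1 symbol, 505 several and 44891 none. Gene IDs of 22077 matched the RefSeq annotation of GRCr8, and where a gene had several clusters (1182 genes) the brightest was used. Group means of the 3 diets were fitted to 16033 genes with limma 3.58.1 in R 4.3.3 (lmFit, eBayes), tested on simulated data first, without renormalization. Diets were taken from the sample titles, and no batch was given. The array number limits the precision, and SEs of the 4 genes are printed with them. Members and gene lists were chosen with earlier results of these data known. Named genes are the 2 with the smallest p for safflower minus low-fat in the receptor, processing, transcription factor and neuropeptide lists, and the first listed marker on the array in the region and tissue lists. Mc3r, Mc4r, Npy5r, Insr, Pcsk2, Tbx3, Bsx, Isl1, Fezf1, Cga and the further pituitary genes were named after their values were seen. Genes most like a member are the 3 with the highest r, leaving out provisional, like-gene and chemosensory receptor symbols. Same-numbered arrays did not deviate together throughout (r from -0.26 to 0.43), so the numbers were not used as pairs. Alternatives were other scalings, filters, priors, weights, an olfactory receptor covariate, a replicate block and each array left out, and quantile normalization over the genes alone was added after the data were seen.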

Additional observations from a re-analysis of the deposited data

Results flagged for a closer look

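Agrp on low-fat replicate 3 was 7.09, below the 7.23 to 7.26 of the other 3 low-fat arrays, a gap of 0.86 of the range in that diet against a critical value of 0.829 for 4 samples. It is the 1 value among the 4 genes and 3 diets that met this criterion, which chance meets in about 1 of 20 groups. Without this array the safflower minus low-fat change of Agrp was -0.41 on the log2 scale. Flaxseed replicate 1 came close to the same limit for Cartpt (11.32, gap 0.826) and Pomc (9.40, gap 0.809).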

How the results depend on the processing

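The number of genes past the threshold for safflower minus low-fat was 6377 as deposited, 2326 after quantile normalization of all clusters, 3331 after cyclic loess, 3457 after quantile normalization over the genes alone, 10003 without a filter on dim genes and 0 with the olfactory receptor covariate. For flaxseed minus low-fat the count of 0 became 1 without the filter and 4713 with array weights, and for safflower minus flaxseed it became 4667 with array weights and ran from 0 to 90 with 1 array left out (90 without safflower replicate 4, 3 without flaxseed replicate 4). Array weights passed 8988 of 16033 genes for safflower minus low-fat, among them Npy (-0.47), and moved Agrp for flaxseed minus low-fat to -0.051. All 4 genes were among the 4667 past the threshold with them for safflower minus flaxseed (-0.78 for Npy, -0.34 for Agrp, -0.58 for Pomc and -0.37 for Cartpt). The exact permutation, which adjusts for nothing, gave p under 0.05 for safflower minus flaxseed in Npy (-0.60), Agrp (-0.44) and Pomc (-0.69) and for flaxseed minus low-fat in Npy (0.42) and Cartpt (0.31). Agrp for safflower minus low-fat no longer passed with quantile normalization of all clusters (-0.20), loess (-0.23) or the olfactory covariate (-0.014), and less the median of its class by signal it was -0.23, but it passed without each array (adjusted p from 0.00793 to 0.0268). The covariate turned Cartpt for safflower minus low-fat to 0.022, and less that median it was -0.34. With each array left out, Npy ran from -0.69 to -0.49 for safflower minus flaxseed and, after quantile normalization of all clusters, from -0.47 to -0.27 for safflower minus low-fat. Both passed without safflower replicate 4 alone. Agrp ran from -0.035 (without flaxseed replicate 1) to 0.13 for flaxseed minus low-fat. Cartpt ran from -0.14 to 0.010 (without safflower replicate 1) for safflower minus low-fat and, after quantile normalization of all clusters, from -0.19 (without flaxseed replicate 1) to 0.23 for flaxseed minus low-fat. Without flaxseed replicate 1, Pomc for flaxseed minus low-fat was 0.15 in place of 0.42. The replicate block, which uses nothing of the unpaired safflower replicate 5, gave 4652 genes for safflower minus low-fat and 0 for the others, Agrp -0.31 (adjusted p = 0.0259), and changed no call on the 4 genes. The causes were not tested. The mean signal of Agrp was 7.08, against 5.17 to 5.86 for the medians of the negative control features.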

Other observations

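The difference between 2 of the peptide genes on the same array removes whatever shifts both alike. Npy minus Agrp was 2.30 to 3.10 on the log2 scale with HF-SD, 2.67 to 3.18 with HF-FD and 2.26 to 2.76 with LF-CD, and Npy minus Pomc was 1.21 to 2.20, 0.82 to 2.02 and 1.37 to 1.90 in the same order of diets, so the ranges overlapped. Agrp minus Cartpt was -3.87 to -3.28 for HF-SD, -3.76 to -3.44 for HF-FD and -3.45 to -3.25 for LF-CD, and overlapped between safflower and low-fat. That overlap came from safflower replicate 1 alone (-3.28), the array lowest for Cartpt (10.15), and every other safflower array lay below all low-fat arrays. The classes by signal that hold Agrp and Cartpt had median changes of -0.15 and 0.26 for HF-SD minus LF-CD, which this difference does not remove. Its mean was -3.67 with HF-SD and -3.38 with LF-CD as deposited, but -3.52 and -3.72 after quantile normalization of all clusters.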
